A study of Rattus norvegicus with 4 samples.

Results

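Mt1, Mt2A and Mt3 are the metallothionein genes described here, 3 of the 32623 genes counted in spatial transcriptomes of rat trigeminal nerve. They were found by their symbols, as Mt1 (ENSRNOG00000038047), Mt2A (ENSRNOG00000043098) and Mt3 (ENSRNOG00000018958). They had been selected on their levels by capture area and by tissue, so their levels and fold changes between TN and HC are given as a description. The fits across all genes give the size of these changes and a standard error. That error is the size divided by the square root of the F statistic of the quasi-likelihood test. It thus restates the test and is no separate measure of precision. No p is given for the members, and nothing is read from whether they were among the genes called. RNA was captured on Visium areas, which read the polyadenylated RNA under each barcoded spot of a tissue section. A spot holds several cells or parts of cells. Of 4 areas, TN1, TN2 and TN3 held the diseased side of 1 animal each, in which chronic compression of the trigeminal root models trigeminal neuralgia (TN). The area labelled HC held control tissue of 2 animals and was taken as 1 sample, because its spots are not assigned to an animal. All were adult male Sprague-Dawley rats. The methods of the study call the control animals sham-operated, whereas the series description takes HC from the healthy side of 2 of the 3 TN animals, so the TN and HC areas may be sides of the same animals. HC has no replicate, so that condition and capture area cannot be told apart.

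Metallothioneins are small proteins rich in cysteine that bind zinc and copper, buffer free metal and scavenge reactive oxygen species. Mt1 and Mt2A are made in most tissues. Their transcription rises with metals through the factor Mtf1, which binds metal response elements, and with glucocorticoids and inflammatory signals, and in the brain they are known mainly from astrocytes. Mt3 is largely a gene of the nervous system, found in neurons and astrocytes, and its product inhibits neurite growth in culture.

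Mt1, Mt2A, Mt3 and Mt4 lie side by side on chromosome 19 in the RefSeq annotation, with 0 other genes between neighbours. Their promoters are shown because Mt1 and Mt2A had the same order of areas over all spots while Mt3 had another. The sequences are the 250 bases before the start site from RefSeq (build GRCr8), 5′ to 3′ on the minus strand, from which these genes are read. The build used by the authors is not given in the sources used here, and the sequences do not enter any count. Capitals mark the core of the metal response element, TGCACNC or TGCGCNC, searched on both strands, with no overlapping matches in these promoters.
Mt1, chr19:10832976-10833225: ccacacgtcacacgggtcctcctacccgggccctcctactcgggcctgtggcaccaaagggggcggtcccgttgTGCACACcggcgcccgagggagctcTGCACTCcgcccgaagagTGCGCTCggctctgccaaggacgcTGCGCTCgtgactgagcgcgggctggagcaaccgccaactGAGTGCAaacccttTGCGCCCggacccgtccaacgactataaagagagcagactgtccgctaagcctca
Mt2A, chr19:10838709-10838958: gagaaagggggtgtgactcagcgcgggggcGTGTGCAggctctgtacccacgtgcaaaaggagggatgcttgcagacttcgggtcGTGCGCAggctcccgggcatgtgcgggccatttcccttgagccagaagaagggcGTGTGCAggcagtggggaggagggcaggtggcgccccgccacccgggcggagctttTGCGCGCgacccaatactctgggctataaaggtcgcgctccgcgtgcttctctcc
Mt3, chr19:10856081-10856330: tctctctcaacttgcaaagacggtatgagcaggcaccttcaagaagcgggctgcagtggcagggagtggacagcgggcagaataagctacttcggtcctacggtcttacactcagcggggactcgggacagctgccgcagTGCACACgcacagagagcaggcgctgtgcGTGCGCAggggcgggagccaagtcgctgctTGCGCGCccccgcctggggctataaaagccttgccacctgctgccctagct
The Mt1 promoter held 6 matches, a number reached by 0.0269% of the 33469 RefSeq promoters of this length. Mt2A held 4, reached by 0.266%, and Mt3 held 3, reached by 1.17%. The promoter of Mt4 held 1 match, as did 20.6% of all promoters at least once. The core of the antioxidant response element, TGACNNNGC, was found once each in Mt1 and Mt2A and not in Mt3 or Mt4, against 10.1% of all promoters. The glucocorticoid half-site TGTTCT was not found in these windows (0 matches in each), against 17.5% of all promoters. A TATAAA box stood in each of the 4, between 37 and 26 bases before the start, against 12.9% of all promoters. A match of letters does not show that a factor binds there.

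TN1 had 23546025 UMIs (unique molecular identifiers, each 1 captured RNA molecule), TN2 38769935, TN3 32239597 and HC 41335930, over 1587, 1256, 1917 and 2013 spots. The median per spot ranged from 9487 UMIs in TN1 to 30808 in TN2. Between 346 and 979 barcode sequences recurred in any pair of areas. Levels are given as CPM, the UMIs of a gene scaled to a common total of UMIs in the same spots. UMIs count 3′ ends of RNA molecules and are not scaled by length, so that levels of different genes can be set side by side.

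Mt3 was by far the most abundant of the family in every area, and it was the one that was lower in TN than in HC. It stood at 2567 CPM in TN1, 1424 CPM in TN2, 1859 CPM in TN3 and 3204 CPM in HC, from 60452, 55199, 59945 and 132450 UMIs. All 3 TN areas were below HC. With 1 HC area this can hold for many genes, and the share of all genes with HC outside the TN range was not counted. By its UMIs Mt3 ranked 33rd, 69th, 46th and 34th of the 17641 to 18118 genes detected in an area. Mt1 stood at 85.6 CPM in TN1, 162 CPM in TN2, 302 CPM in TN3 and 78.7 CPM in HC. Mt2A stood at 55.8 CPM in TN1, 107 CPM in TN2, 215 CPM in TN3 and 53.5 CPM in HC. For both genes TN3 was the highest and TN2 the next, while TN1 lay close to HC. The TN mean was 183 ± 110 CPM for Mt1, 126 ± 81.3 CPM for Mt2A and 1950 ± 577 CPM for Mt3 (SD, n = 3). The distance of HC from the TN mean was larger than this spread for Mt3, and smaller for Mt1 and Mt2A. Thus Mt3 gave 40.7 UMIs for each Mt1 UMI in HC and 29.99 in TN1, but 8.81 in TN2 and 6.15 in TN3. The ratio of Mt2A to Mt1 was nearly the same in the 4 areas, between 0.651 and 0.711 UMIs per UMI.

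**Figure D1:**
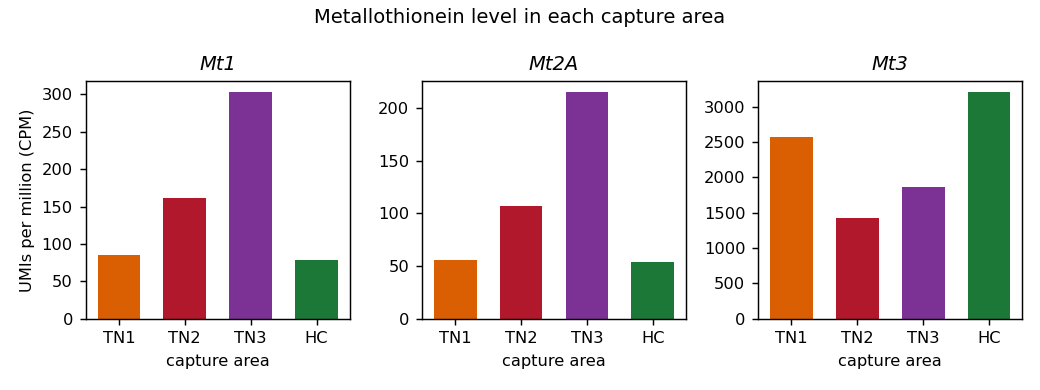
Level of each metallothionein in each capture area, in CPM over all spots (1 bar per area, each panel with its own axis from 0). TN3 had 302 CPM of Mt1 and 215 CPM of Mt2A, the highest of the 4 areas for both, and HC had 3204 CPM of Mt3, the highest for that gene.

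Mt4, a gene of stratified epithelium, was at 4, 8, 11 and 15 UMIs in TN1, TN2, TN3 and HC. The metallothionein pseudogene listed as Mt1m, on chromosome 20 in RefSeq, was at 49, 95, 119 and 38 UMIs, which was between 1.17% and 2.43% of the UMIs of Mt1. Mt1, Mt2A and this copy are similar in sequence, and how reads that fit more than 1 of them were counted is uncertain.

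Over all spots no gene, member or not, passed the test between TN and HC (0 of 14902 tested, 0%, with edgeR's quasi-likelihood test and Benjamini-Hochberg adjustment at 0.05, and 1271 with an unadjusted p under 0.05). The log2 fold change of TN against HC was 1.14 for Mt1 (standard error 0.75), 1.16 for Mt2A (standard error 0.79) and -0.79 for Mt3 (standard error 0.40). Without TN3, the area highest in both, Mt1 was at 0.56 and Mt2A at 0.51. DESeq2 called 127 genes higher and 31 lower (1.06%), none (0) of them a member. The test takes HC to vary like the TN areas and rests on 2 residual degrees of freedom. The edgeR count turned on TN1. Without it edgeR called 1186 genes higher and 985 lower (14.8% of 14692), again none (0) of them a member. The areas also held different tissue, so that for each gene fewer cells of a type and less RNA per cell cannot be told apart.

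To compare like tissue, the spots were grouped into 10 clusters by K-means on 2997 variable genes, with the 3 metallothioneins left out. Clusters were named by lists of marker genes, or left unnamed when the leading lists scored alike. Cluster 1 (148 spots in TN1, 40 in TN2, 94 in TN3, 661 in HC) and cluster 9 (54, 325, 70 and 0) were named ganglion, from sensory neuron genes such as Tac1 and Scn10a. Cluster 9 was led by Csrp3 and Gal, genes of injured neurons. Ganglion spots of TN2 lay mostly there, those of TN1 and TN3 more in cluster 1, and those of HC in cluster 1 alone. Cluster 8 (79, 44, 56 and 349 spots) was named central myelin, from oligodendrocyte genes such as Mog and Mobp. Cluster 2 (268, 192, 337 and 94 spots) scored nearly alike for central myelin and astrocyte genes and was left unnamed, with Aqp4, Gfap and Mlc1 among its leading genes. Cluster 7, named central neuron, had spots of TN1 and TN2 alone (407 and 127). Cluster 6, named blood and bone, had 72, 28, 158 and 507 spots, so that the sections held more than trigeminal nerve. Levels are given where an area had at least 20 spots.

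Mt2A was concentrated in the astrocyte-rich spots of cluster 2, which held 39.4% of all Mt2A UMIs with 5.05% of all UMIs. It was at 248 CPM there in TN1, 832 CPM in TN2, 1275 CPM in TN3 and 219 CPM in HC. TN2 and TN3 stood far above the other 2 areas, which were close to each other. With 12 clusters, 1 was named astrocyte, macrophage genes scoring second, and had 1, 70, 142 and 1 spots in TN1, TN2, TN3 and HC. It held 34.1% of Mt2A UMIs with 2.50% of all UMIs, at 1141 CPM in TN2 and 1632 CPM in TN3. Central myelin then had 194, 513, 417 and 179 CPM of Mt2A in the same order. Tissue and level in cluster 2 thus cannot be told apart. Among genes with at least 1000 UMIs, Mt2A led cluster 2 by log2(CPM + 5) less its mean over the 10 clusters. It did not enter the clustering, but genes that went with it across spots, such as Gfap, were not left out. Mt2A had also been selected with its levels by tissue in view, so its lead is no independent support. The next level was in the central myelin of cluster 8, with 162 CPM in TN1, 600 CPM in TN2, 326 CPM in TN3 and 173 CPM in HC. In the ganglion of cluster 1 it was at 25.1, 33.3, 42.5 and 28.3 CPM in the same order, the range of all areas lying below 43 CPM. In ganglion cluster 9 it was at 17.5 CPM in TN1, 40.8 CPM in TN2 and 57.3 CPM in TN3. Central neuron spots had 67.0 CPM in TN1 and 74.1 CPM in TN2. In blood and bone spots Mt2A was at 79.4 CPM in TN1, 327 CPM in TN2, 258 CPM in TN3 and 83.0 CPM in HC, and the astrocyte genes summed to 2681, 5366, 4031 and 3490 CPM there. There too TN1 and HC were close and TN2 and TN3 were higher, but TN1 and TN2 had only 48 and 42 UMIs of Mt2A in these spots.

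Mt1 was also high in cluster 2, at 195 CPM in TN1, 643 CPM in TN2, 1061 CPM in TN3 and 268 CPM in HC. There TN1 was below HC. Cluster 2 held 22.3% of the UMIs of Mt1, a smaller share than that of Mt2A, and Mt1 was also found along the peripheral nerve. In the peripheral myelin of cluster 5, named from Schwann cell genes such as Prx, Mt1 was at 226 CPM in TN1 and 402 CPM in TN3, the areas with enough spots, against 35.4 and 127 CPM of Mt2A. In TN1 this was above the 195 CPM of Mt1 in cluster 2. In cluster 3, unnamed between connective tissue and peripheral myelin, Mt1 was at 197 CPM in TN2 and 251 CPM in TN3, and in connective tissue cluster 10 at 166 and 203 CPM. In unnamed cluster 4, which had both peripheral myelin and sensory neuron genes, Mt1 was at 117 CPM in TN1, 120 CPM in TN2, 171 CPM in TN3 and 112 CPM in HC. Central neuron spots had the lowest Mt1 of their areas, with 24.0 CPM in TN1 and 49.1 CPM in TN2. In the ganglion of cluster 1 Mt1 was at 40.2 CPM in TN1, 57.9 CPM in TN2, 91.8 CPM in TN3 and 49.8 CPM in HC.

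The balance of Mt2A and Mt1 differed between central and peripheral tissue, although it was alike in whole areas. Per Mt1 UMI there were 0.157 Mt2A UMIs in peripheral myelin of TN1 and 0.315 in that of TN3. In ganglion cluster 1 the ratio ranged from 0.463 in TN3 to 0.623 in TN1. In central myelin cluster 8 it was 1.21 in HC and 1.12, 1.42 and 1.60 in TN1, TN2 and TN3, so that Mt2A exceeded Mt1 in every area. In cluster 2 it was 1.27, 1.29 and 1.202 in the TN areas and 0.818 in HC. Central neuron spots had 2.79 in TN1 and 1.51 in TN2. Blood and bone spots had 1.75 in TN2, with 0.762 in TN1, 0.990 in TN3 and 0.822 in HC, from as few as 24 Mt1 UMIs in TN2. The ranges of cluster 8 and of ganglion cluster 1 did not overlap, whereas those of neighbours such as clusters 2 and 8 did.

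**Figure D2:**
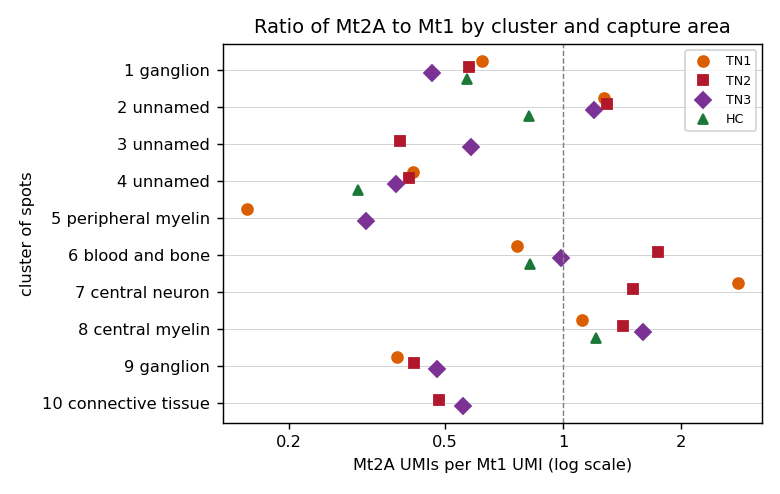
Mt2A UMIs per Mt1 UMI (x axis, log scale) in each cluster of spots (y axis), with 1 point for each capture area that had at least 20 spots of the cluster; the dashed line marks equal numbers. Peripheral myelin lay at 0.157 and 0.315, and central myelin between 1.12 and 1.60.

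Mt3 was spread over neurons, peripheral nerve, astrocyte-rich spots and blood and bone spots, and was lowest in connective tissue. In blood and bone spots Mt3 was at 2072, 1597, 1540 and 1990 CPM in TN1, TN2, TN3 and HC. Its levels in central neuron spots were 3503 CPM in TN1 and 4026 CPM in TN2, the highest of these areas. In connective tissue cluster 10 it was at 554 CPM in TN2 and 582 CPM in TN3. Unnamed cluster 3 had 988 CPM in TN2 and 1081 CPM in TN3. Peripheral myelin had 2719 CPM in TN1 and 2401 CPM in TN3. The ganglion of cluster 1 held 39.7% of all Mt3 UMIs with 29.1% of all UMIs. Of its 943 spots 661 were of HC, the area with the most Mt3 over all spots, so this pooled share also reflects the areas. Within TN1 the level in cluster 1 was below that of the whole area, and within TN2, TN3 and HC it was above.

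**Figure D3:**
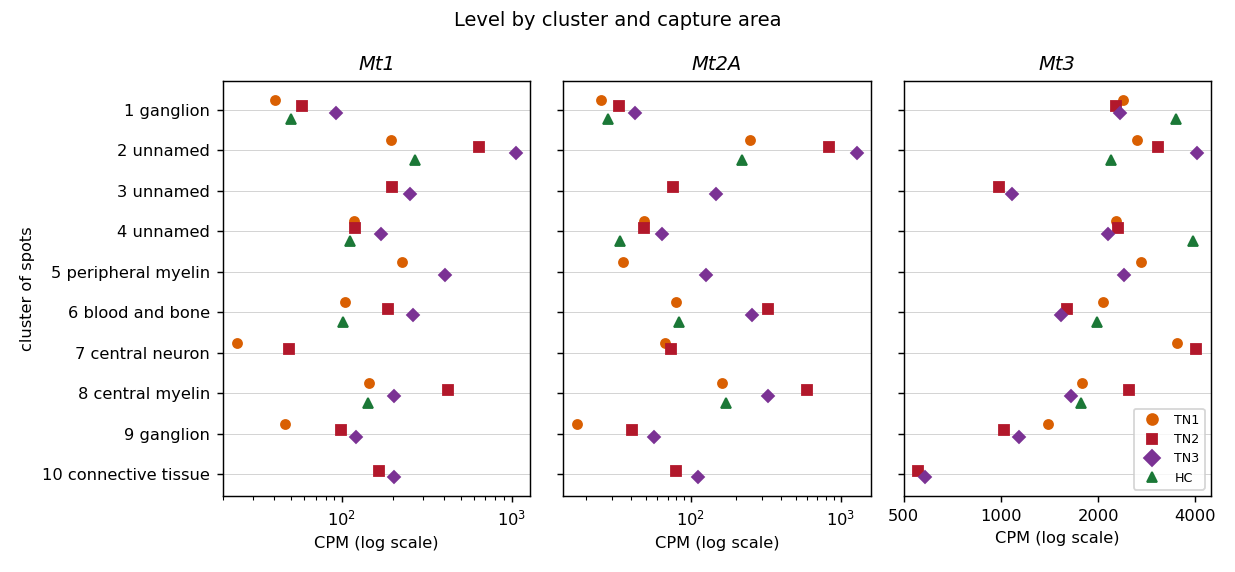
Level of each metallothionein (x axis, CPM on a log scale) in 10 clusters of spots (y axis), with 1 point for each capture area that had at least 20 spots. Mt2A reached 1275 CPM in unnamed, astrocyte-rich cluster 2 of TN3, and Mt3 in ganglion cluster 1 was at 3490 CPM in HC against 2264 to 2382 CPM in TN.

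In the ganglion, Mt3 was lower in each TN area than in HC. It was at 2382 CPM in TN1, 2264 CPM in TN2, 2333 CPM in TN3 and 3490 CPM in HC in cluster 1, where the 3 TN areas were alike. In cluster 9 its levels were lower still, with 1403 CPM in TN1, 1022 CPM in TN2 and 1138 CPM in TN3. Unnamed cluster 4, between peripheral myelin and sensory neuron genes, had 2280, 2307 and 2143 CPM in TN1, TN2 and TN3 against 3924 CPM in HC. With clusters 1 and 9 joined as the ganglion region, Mt3 was at 2115 CPM in TN1, 1213 CPM in TN2, 1889 CPM in TN3 and 3490 CPM in HC. The log2 fold change of TN against HC in this region was -1.07 for Mt3 (standard error 0.31), 0.59 for Mt1 (standard error 0.48) and 0.31 for Mt2A (standard error 0.40). Here 0 of 12826 genes passed (0%), against 1182 at an unadjusted p under 0.05. DESeq2 called 98 genes higher and 21 lower (0.928%), none (0) of them a member. With TN1 left out, edgeR called 805 of 12911 genes (6.23%), Mt3 (log2 fold change -1.24) and Mt1 (0.89) among them, but not Mt2A (0.56). That fit set only TN2 and TN3 against HC, and it dropped the TN area nearest HC for each member in this region. The members had also been selected on these sums, so nothing is read from these calls. Within cluster 1 alone, a comparison chosen once the levels were known, the log2 fold change of Mt3 was -0.63 (standard error 0.12).

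Ganglion levels were also set beside the genes of nerve injury. Ganglion spots were cut into tertiles by the summed CPM of 12 such genes (among them Atf3, Sprr1a, Gal, Npy and Gap43), a division made after the levels had been seen. In TN1 Mt3 went from 2772 to 2561 to 1528 CPM over the tertiles. In TN2 it went from 2171 CPM in the middle to 989 CPM in the top tertile, and in TN3 from 2356 to 1219 CPM. HC had no spot in the top tertile and stood at 3511 and 3456 CPM in the others. At the middle tertile, where all 4 areas had 59 or more spots, HC was thus above each TN area. The injury genes were not alike there, summing to 1113, 1428 and 1164 CPM in TN1, TN2 and TN3 and 892 CPM in HC. Within cluster 1 alone, cut into tertiles of its own, Mt3 moved much less. There it was at 2630, 2626 and 2270 CPM over the tertiles of TN1 and at 3521, 3479 and 3437 CPM over those of HC. TN3 had 2336 CPM in the middle tertile of cluster 1 (18 spots) and 2351 CPM in the top one, so that it did not fall, and TN2 had spots in the top tertile alone. Mt1 and Mt2A showed no common course, with Mt1 at 45.0 and 40.8 CPM in the middle and top tertiles of TN1, 94.8 and 91.3 CPM in TN2, and 92.7 and 118 CPM in TN3. The macrophage list (8 genes) stood at 230, 495, 396 and 156 CPM in the middle tertile of TN1, TN2, TN3 and HC. In the top tertile it stood at 358, 713 and 557 CPM in TN1, TN2 and TN3, and its part in the levels of Mt3 was not tested. Over the whole ganglion region all 12 injury genes had a higher estimate in TN, with a median log2 fold change of 3.22 against 0.03 over all genes. None (0) passed the adjusted threshold with edgeR, and all 12 had an unadjusted p under 0.05.

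**Figure D4:**
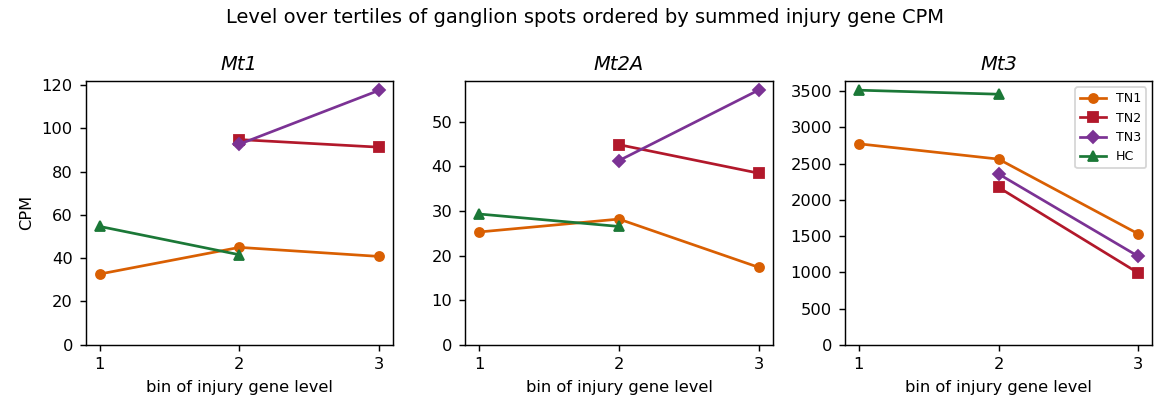
Level of each metallothionein (y axis, CPM) over tertiles of the ganglion spots ordered by summed injury gene CPM (x axis, bins from low to high), by capture area, shown where an area had at least 20 spots. Mt3 stood at 1528, 989 and 1219 CPM in the top tertile of TN1, TN2 and TN3, and HC had no spot there.

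In the central root the direction of Mt3 was not that of the ganglion. In cluster 8 it was at 1778 CPM in TN1, 2494 CPM in TN2, 1649 CPM in TN3 and 1771 CPM in HC, with HC within the TN range. In cluster 2 it was at 2633, 3062 and 4047 CPM in TN1, TN2 and TN3 against 2200 CPM in HC, so that each TN area was above HC. With 12 clusters the astrocyte cluster, nearly all TN2 and TN3 spots, had 3741 and 5058 CPM of Mt3 in those areas. Central myelin then had 2394, 2310 and 1923 CPM of Mt3 in TN1, TN2 and TN3 against 1835 CPM in HC. Between TN and HC in the central myelin region of cluster 8, the log2 fold change was 0.09 for Mt3 (standard error 0.26), 1.0002 for Mt2A (standard error 0.54) and 0.78 for Mt1 (standard error 0.47). Without TN2, Mt2A was at 0.41 and Mt1 at 0.21. Here 0 of 6897 genes passed (0%), with 178 at an unadjusted p under 0.05 in edgeR. DESeq2 called 0 genes. With TN1 left out, edgeR called Mt2A (log2 fold change 1.37) and Mt1 (1.09) among 149 of 6469 genes (2.3%). Here too the fit dropped the TN area nearest HC for both genes, and nothing is read from these calls. In the sums of cluster 8, Mt2A had 104, 308, 117 and 769 UMIs and Mt1 had 93, 217, 73 and 634 UMIs, so the counts limit these values.

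The difference between regions was estimated as an interaction term with a block for each area, from the same sums on which the members had been selected. For Mt3 the change in the ganglion was lower than that in central myelin by 1.17 on the log2 scale (estimate -1.17, standard error 0.27). It was 1 of 82 genes called among 11806 (0.695%), 42 higher and 40 lower. It was not among the genes called with DESeq2, which gave -1.16 and called 7 genes (0.0593%), without TN2, which gave -0.73, or with 4 other ways of clustering, which gave -1.74 to -0.88. Mt2A had an interaction of -0.60 (standard error 0.28) and Mt1 of -0.18 (standard error 0.28).

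Because clusters of TN and HC may hold unlike mixtures, levels were also set side by side at a like level of astrocyte genes, without clusters. All spots were cut into quintiles by the summed CPM of 12 astrocyte genes, among them Aqp4, Gfap, Gja1 and Slc1a3. In the top quintile Mt2A was at 201 CPM in TN1, 720 CPM in TN2, 1124 CPM in TN3 and 198 CPM in HC. Mt1 was at 149 CPM in TN1, 560 CPM in TN2, 951 CPM in TN3 and 184 CPM in HC. TN1 and HC were thus close for both genes, with TN2 and TN3 several times higher. The astrocyte genes themselves summed to 7666, 10540, 11434 and 9074 CPM in this quintile, in the same order of areas as Mt1. The macrophage list stood at 665, 1651, 2861 and 875 CPM, also in that order. The part of either list in the levels of Mt1 and Mt2A was not tested. In the lowest quintile Mt2A was between 34.3 CPM in HC and 77.6 CPM in TN3. In TN1 the genes went apart, with Mt2A at 36.3 CPM in the lowest quintile and Mt1 at 199 CPM, above its own level in the top one.

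Mt3 turned from the highest level in HC to the lowest over these quintiles. In the lowest quintile it was at 2640 CPM in TN1, 915 CPM in TN2, 1330 CPM in TN3 and 3960 CPM in HC (23 spots), and in the top quintile at 3207, 3126, 3767 and 1953 CPM. HC was above each TN area in the 3 lower quintiles. TN2 and TN3 had more Mt3 in the top than in the lowest quintile, and HC had less. In the top quintile the sensory neuron genes summed to 1259, 808, 746 and 1470 CPM, against 7642 CPM in the middle quintile of HC. The central myelin genes summed to 1958, 1838, 1306 and 2444 CPM in the top quintile of TN1, TN2, TN3 and HC. They were thus highest in HC, where Mt3 was lowest, and lowest in TN3, where Mt3 was highest. The part of either list in the levels of Mt3 was not tested.

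**Figure D5:**
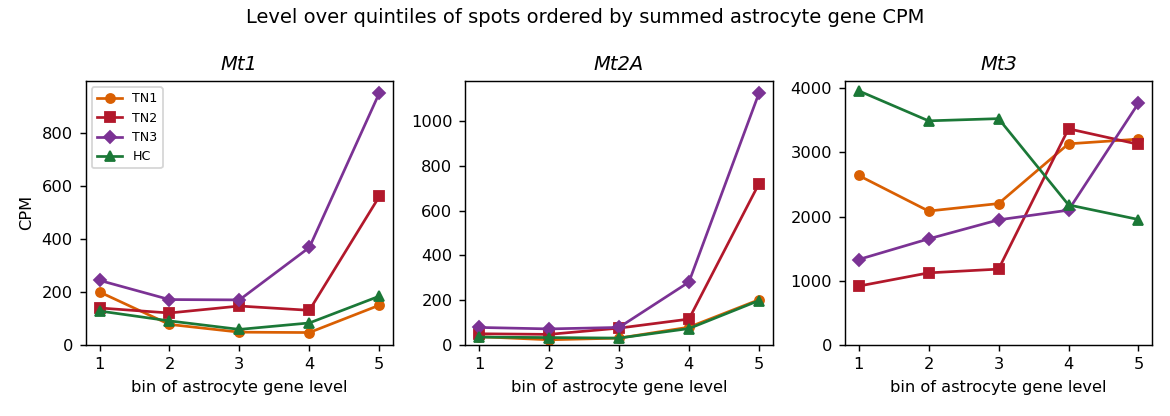
Level of each metallothionein (y axis, CPM) over quintiles of all spots ordered by summed astrocyte gene CPM (x axis, bins from low to high), by capture area. Mt2A reached 720 and 1124 CPM in the top quintile of TN2 and TN3, against 201 and 198 CPM in that of TN1 and HC; Mt3 was at 1953 CPM there in HC and at 3126 to 3767 CPM in TN.

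Spots with at least 1 UMI gave the same order of areas for Mt1 and Mt2A when each spot was thinned to 2000 UMIs, with 9, 16, 116 and 9 shallower spots of TN1, TN2, TN3 and HC left out. Mt1 was then found in 19.1% of spots of TN1 (95% exact binomial interval 17.2% to 21.1%), 28.8% in TN2 (26.3% to 31.4%), 41.3% in TN3 (39.0% to 43.6%) and 16.8% in HC (15.2% to 18.5%). Mt2A was found in 14.4% in TN1, 23.2% in TN2 and 28.9% in TN3, with 13.3% in HC. Before thinning, Mt1 was found in 54.2%, 88.9%, 83.9% and 65.4% of spots, where the deeper TN2 came ahead of TN3. Mt3 was found in 98.2% of thinned spots in HC, with 99.1% in TN1, 86.1% in TN2 and 91.6% in TN3, and in 65.4% of those of connective tissue cluster 10. Mt1 was lowest in central neuron spots, with 5.24% (3.51% to 7.49%), at a median depth of 14436 UMIs, against 45.4% (42.01% to 48.8%) in cluster 2 at 5820. RNA that spreads between spots adds to such shares, and the intervals cover counting error only.

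The genes most like each member were taken from 7834 genes with a UMI in at least 10% of spots of every area, by Pearson correlation of log2(CPM + 100) over the spots of an area, averaged over the 4 areas. Spots share library, depth and tissue, so these are descriptions. Mt2A was most like Gfap, the intermediate filament of astrocytes (mean r = 0.587, from 0.425 in TN1 to 0.782 in TN2), followed by Tf, Mlc1, Aqp4 and Fabp7. Mt1 was most like Mt2A (mean r = 0.374), followed by the ferritin genes Fth1 and Ftl1, Lcat and Rplp1. Mt3 was most like Ldhb (mean r = 0.387) and Ckb, a lactate dehydrogenase and a creatine kinase, then Pvalb, Vsnl1 and Aldoc. The correlation of Mt2A with the summed astrocyte genes was above 0 in each area, from 0.378 to 0.731. It was also above 0 in each area with satellite glia (0.240 to 0.680), central myelin (0.291 to 0.614) and macrophage genes (0.134 to 0.440). With sensory neuron, peripheral myelin, connective tissue and central neuron genes it was below 0 in each area. The correlation of Mt3 with the astrocyte genes went from -0.507 in HC to 0.620 in TN2, with 0.0902 in TN1 and 0.357 in TN3. With peripheral myelin genes Mt3 had r = 0.600 in HC, -0.0316 in TN1, -0.484 in TN2 and 0.101 in TN3.

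Other genes of metal handling and of signals known to raise metallothioneins were taken from lists, and none (0) passed the adjusted threshold over all spots or in the ganglion region with edgeR. Over all spots, 1 zinc exporter, 1 zinc importer, 2 glucocorticoid response genes and 1 gene of the STAT3 and IL-6 list had an unadjusted p under 0.05. These were 5 of the 52 genes of these lists tested (9.62%), near the 8.53% of all genes. In the ganglion region the share was 8.89% of 45 genes, against 9.22% of all. In the central myelin region it was 10.3% of only 29 genes, against 2.58% of all. Of the 9 exporters and vesicle transporters of zinc tested over all spots (Slc30 family), 7 had a higher estimate in TN, with a median log2 fold change of 0.29 against 0.06 over all genes. Slc30a1, the exporter of the cell surface and a target of Mtf1, was at 1.95 CPM in TN1, 3.71 CPM in TN2 and 4.28 CPM in TN3, with 1.67 CPM in HC (log2 fold change 0.91, adjusted p = 0.606 with edgeR). Its order of areas was that of Mt1 and Mt2A, at a much lower level. Of 13 zinc importers (Slc39 family), 4 had a higher estimate and 9 a lower one. Slc39a14, an importer of the cell surface that is known to rise in inflammation, was at 13.7, 14.3 and 14.6 CPM in TN1, TN2 and TN3 against 7.84 CPM in HC (log2 fold change 0.78, adjusted p = 0.556 with edgeR). Mtf1 did not pass the filter on low counts. Sod1, the copper and zinc superoxide dismutase, was below HC in each TN area, with 443, 391 and 287 CPM against 576 CPM, and the 8 copper genes had a median of -0.03.

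Of 7 glucocorticoid response genes over all spots, 6 had a higher estimate in TN, with a median log2 fold change of 1.43. Cebpd, a transcription factor induced by glucocorticoids and cytokines, was at 46.6 CPM in TN1, 93.7 CPM in TN2 and 94.5 CPM in TN3, with 17.0 CPM in HC (log2 fold change 2.12, adjusted p = 0.556 with edgeR). Sgk1, a kinase induced by glucocorticoids, was at 171, 83.1, 136 and 45.6 CPM in the same order. Both were above HC in all 3 TN areas, but for Sgk1 TN1 was the highest, unlike Mt1 and Mt2A. The 8 oxidative stress genes tested had a median of 0.02, with 4 higher and 4 lower estimates. Of 6 genes of the STAT3 and IL-6 family response, 4 had a higher estimate, with a median of 0.79. Timp1, an inhibitor of matrix proteases, was at 157, 508 and 531 CPM in TN1, TN2 and TN3 and 104 CPM in HC, and Lcn2 was at 7.39, 7.69 and 8.78 CPM against 15.9 CPM. In the ganglion region 7 of 8 zinc exporters and 3 of 12 importers had a higher estimate. The median there was 0.22 for 5 glucocorticoid response genes and 0.14 for 4 genes of the STAT3 and IL-6 list, against 0.03 over all genes, and in central myelin that of 5 glucocorticoid response genes was 0.40 and that of 2 STAT3 and IL-6 genes 0.97. The lists that move with them over all spots included macrophage genes, at 427, 921, 1337 and 285 CPM in TN1, TN2, TN3 and HC, and connective tissue genes, at 1974, 5777, 5583 and 1450 CPM, and their part was not tested.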

How the data were processed

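Spatial gene expression was measured in 4 Visium capture areas (3 TN, 1 HC). Space Ranger (1.2.0 in the matrix header, with STAR also named in the submitters' processing notes) was run by the authors, who deposited the raw UMI count of every gene in each tissue-covered spot, with no normalization. The genome build, the annotation and any equalising of depth between joined areas were not given in the sources used here. Areas were read from the barcode suffix through the series description.

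SCTransform (sctransform 0.4.2 in Seurat 5.3.0) was run on 16088 genes detected in 10 or more spots. The most variable 3000, less the 3 metallothioneins, gave 30 principal components and, by K-means with 50 starts, 10 clusters. A cluster took the name of the marker list with the highest mean centred log2(CPM + 5), unless the next list lay within 0.25. Sums of UMIs were compared in edgeR 4.0.16 under R 4.3.3 with TMM factors, filterByExpr, a quasi-likelihood fit and Benjamini-Hochberg adjustment over all genes at 0.05, where every area had 20 spots. Alternatives were DESeq2 1.42.0, its size factors in edgeR, low counts kept, each TN area removed, totals without hemoglobin, ribosomal protein and mitochondrial genes, spots with 500 genes and 1000 UMIs, 8 or 12 clusters, and clusters with metallothioneins among the variable genes or from log-normalised counts. Other choices of clusters were made later, with the data in view. The scripts were tested on simulated data.

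The members and lists were chosen with earlier results of these data known. Genes were named as members, as the 5 genes most like each member, or from lists of metal handling, glucocorticoid, oxidative stress, STAT3 and IL-6, injury and cell type marker genes. Pecam1, Nr3c1 and Srxn1 of these lists were not found. TN replicates are separate animals, and the total count per sample ranged from 23546025 to 41335930 UMIs. No doublet caller was applied to spots, and images were not used.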

Additional observations from a re-analysis of the deposited data

Results flagged for a closer look

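The TN against HC change of Mt3 differed between the ganglion region and the central myelin region by -1.17 on the log2 scale in the interaction fit, in which edgeR called it at an adjusted p under the threshold. Mt3 had been selected on these same sums, so the call is no independent evidence of a difference. The estimate had the same sign in each alternative, and the call was lost under DESeq2, without TN2 and with every other clustering tried.

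Mt3 was also above HC in all 3 TN areas in astrocyte-rich cluster 2 and below HC in all 3 in ganglion cluster 1 and in unnamed cluster 4. The log2 ratio of the TN mean to HC was 0.56 in cluster 2, -0.59 in cluster 1 and -0.81 in cluster 4, so that cluster 2 exceeded cluster 1 by 1.15 and cluster 4 by 1.37. These 2 differences were not tested as such. How many of all genes had HC outside the TN range in these clusters, or opposite directions between them, was not counted. The nearest fit, of the ganglion region against cluster 2 alone, gave -1.58 for Mt3, which was not called.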

How the results depend on the processing

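Each TN area was left out in turn, with the ranges as follows. Over all spots, the number of genes called was 0 to 2171, with log2 fold changes of 0.56 to 1.48 for Mt1, 0.51 to 1.51 for Mt2A and -1.05 to -0.58 for Mt3. The lowest values of Mt1 and Mt2A came without TN3. In the ganglion region, it was 0 to 805, with log2 fold changes of 0.39 to 0.89 for Mt1, 0.11 to 0.56 for Mt2A and -1.24 to -0.84 for Mt3. In the central myelin region, it was 11 to 149, with 0.21 to 1.09 for Mt1, 0.41 to 1.37 for Mt2A and -0.12 to 0.19 for Mt3, which turned sign without TN2. For the difference between regions, it was 57 to 82, with -0.49 to 0.14 for Mt1, which turned sign without TN2, -0.83 to -0.16 for Mt2A, and -1.47 to -0.73 for Mt3, which was not called without TN2. The highest numbers of calls in single regions and over all spots came without TN1.

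The difference for Mt3 was not called with DESeq2 (-1.16), 8 clusters (-1.74), 12 clusters (-1.35), metallothioneins among the variable genes (-1.36), log-normalised counts (-0.88), cluster 1 against clusters 2 and 8 (-1.28) or the ganglion region against cluster 2 (-1.58), the last 2 of which were chosen after seeing the data. The genes called were then 7, 1, 3, 3, 1, 0 and 1. With log-normalised counts the difference for Mt1 turned to 0.10. DESeq2 called 158 genes over all spots and 119 in the ganglion region. In the ganglion region edgeR called 21 with no filter on low counts, 5 with log-normalised counts and 6 in cluster 1 alone, and in the central myelin region 42 with no filter. Of 147 alternative estimates for the members, 132 kept both direction and side of the threshold; the cause of the other changes was not tested.

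The central myelin region, with 8 clusters, had mean levels of 466 CPM of Mt1, 585 CPM of Mt2A and 2697 CPM of Mt3. Peripheral myelin then had 3167 CPM of Mt3. Connective tissue had 216 CPM of Mt1 and 837 CPM of Mt3 with log-normalised counts, and 699.6 and 545 CPM of Mt3 with 12 clusters and with metallothioneins among the variable genes. Without thinning, spots with a UMI were 54.2%, 88.9%, 83.9% and 65.4% for Mt1 in TN1, TN2, TN3 and HC, 45.7%, 80.7%, 71.9% and 54.1% for Mt2A, and 99.9%, 99.6%, 97.8% and 99.8% for Mt3. With log2(CPM + 10), 1 of the 5 genes most like Mt1, 4 for Mt2A and 3 for Mt3 were shared with the list given. No paired analysis was possible because HC has 1 capture area, and the replicate numbers were given in accession order.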
